A study of Bos taurus with 2 samples.

Results

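The genes described here are molecular chaperones, their co-chaperones and the transcription factors of the heat shock response and the unfolded protein response, 40 genes chosen by name: 18 that act in the cytosol, 4 in mitochondria, 12 in the endoplasmic reticulum and 6 regulators. Every probe on the array that carries one of these names, by its gene symbol or its RefSeq accession, was taken, which gave 123 probes for 39 of the 40 genes, out of 16888 genes with a named probe. Of the 40, 38 had a probe above background on both arrays, among 10339 such genes in all. The study measured total RNA from whole blood of Holstein cattle (Bos taurus) on a bovine oligonucleotide microarray, with 1 array for a specimen of low feed efficiency and 1 for a specimen of high feed efficiency. The low efficiency specimen is the one labelled with high residual feed intake, a measure of feed eaten in excess of that predicted from size and output. The age and sex of the cattle, their diet and the number of animals behind each specimen are not given in the sources used here. Both arrays were on the same slide and were read in the same scan, per the file headers.

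Chaperones bind proteins that are not yet folded or have lost their fold, and keep them from clumping. HSP70 proteins bind and release short stretches of a client in a cycle driven by ATP, J-domain proteins bring the clients and start the cycle, and HSP90 proteins take over clients that are nearly folded, such as steroid hormone receptors. When misfolded protein builds up in the cytosol, the factor HSF1 is set free and switches on heat shock genes; when it builds up in the endoplasmic reticulum, the sensors IRE1, PERK and ATF6 switch on the factors XBP1, ATF4 and ATF6 and, with them, the chaperones of that compartment. Secretory cells such as plasma cells are rich in endoplasmic reticulum machinery, and heat shock genes are widely used as a sign of heat stress in dairy cattle.

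Intensities below are the background-subtracted brightness of a spot, given as low against high feed efficiency. The low efficiency array was the brighter of the pair, 1.21 times at the 75th percentile of probes, so equal RNA corresponds to a ratio near 1.21, and each difference is the log2 ratio of low over high after dividing by that percentile. Where several probes of a gene exceeded background on both arrays, the brightest gives the gene's value, and the others are given beside it. Since each group has 1 array, differences could not be checked in replicates and carry neither tests nor p-values; the number of arrays limits the precision. Scaling on spike-in controls instead adds 0.38 to every difference, so a direction given here is relative to the 75th percentile, and a difference between -0.38 and 0 would turn positive under that scaling. Error within the arrays shows in replicate spots of a probe and in the spread over probes of a gene, given below. Of the probes with replicate spots, 12 above the median signal of all genes had an SD of the log2 difference of 0.10. The 24 below that median had 0.23. The labels name no separate animals within a group, so these differences compare 2 blood specimens.

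Few chaperone and stress factor genes differed by 1.5-fold between the 2 specimens, as was so for all genes. None of the 38 measured genes was 1.5-fold higher in low feed efficiency and 1, the co-chaperone gene BAG3, was 1.5-fold lower; over all genes 2.68% were 1.5-fold higher and 3.14% were 1.5-fold lower (1991 and 70 genes with spike-in scaling, in place of 277 and 325). At 2-fold the counts were 0 and 0 of 38, where all genes had 0.368% higher and 0.571% lower. The 38 differences ran from -0.64 to 0.31 with a median of -0.015, beside -0.039 for all genes, and 22 of the 38 lay above that median (50% of all genes by construction), while 18 lay above 0 (44.4% of all genes). Their SD was 0.19, against 0.33 over all genes, and their middle range, between the quartiles, was -0.13 to 0.10 against -0.22 to 0.15. Dim genes scatter more, and 32 of the 38 were brighter than the median gene; among genes that bright the SD was 0.19 for these 32 and 0.26 for all 5169, with quartiles of -0.11 and 0.10 against -0.23 and 0.09. No test of the spread was made. Of those 5169 bright genes 44 were 1.5-fold higher in low feed efficiency and 106 were 1.5-fold lower, and of the 32 the counts were 0 and 1. Farther from the median of all genes than 1.96 times the SD of replicate spots, 0.20 for bright and 0.46 for dim genes, were 7 genes on the higher and 4 on the lower side, where all genes had 14.0% above and 15.4% below. The 7 were HSPA4, DNAJA1, HSP90AA1, DNAJC3, EDEM1, ATF4 and DDIT3, and the 4 were BAG3, HSPB1, HSPD1 and HSF1, all of them bright. The shares over all genes include dim genes, which have the wider limit, so they are not matched to these mostly bright genes. The share among bright genes alone was not counted. Spot error also leaves out differences between probes of a gene. HSPA4, DNAJA1, ATF4, HSPB1 and HSPD1 had probes on both sides of 0.

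**Figure D1:**
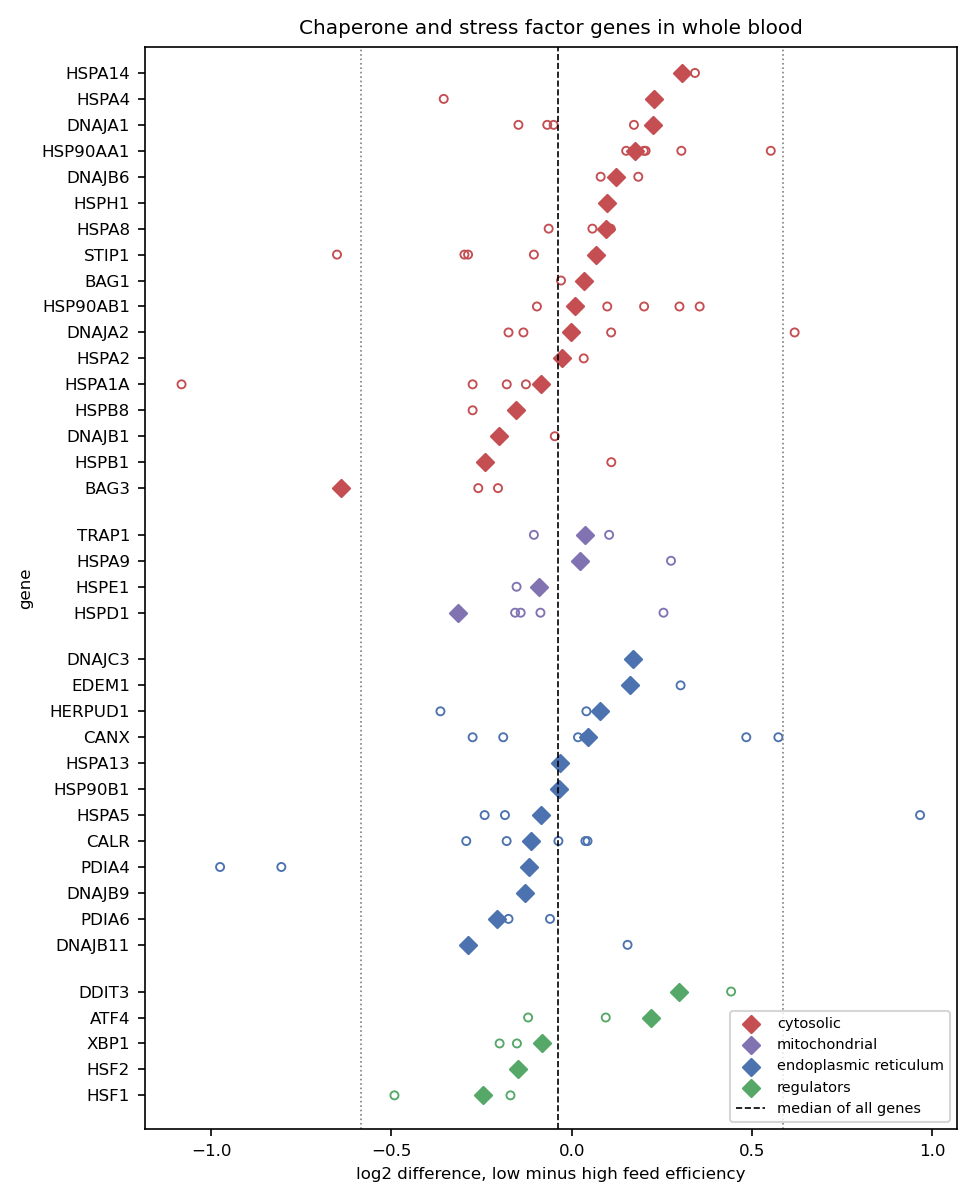
Difference between the arrays, as log2 of low over high feed efficiency (x axis), for the 38 genes above background on both arrays (y axis), in 4 groups by compartment; diamonds are the brightest probe of a gene, open circles its other probes above background on both arrays. The dashed line is the median of all genes, -0.039, and the dotted lines mark 1.5-fold; of the diamonds, that of BAG3 at -0.64 lies outside them.

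Cytosolic chaperones. The 17 measured genes had a median of 0.03, with 12 above and 5 below the median of all genes, none 1.5-fold higher and 1 1.5-fold lower. The 5 below that median were BAG3, HSPB1, DNAJB1, HSPB8 and HSPA1A.

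HSP90AA1, the stress-inducible cytosolic HSP90, was read by 6 probes, and all 6 were higher in low feed efficiency. They read 3545 against 2592, 3355 against 2246, 3241 against 1827, 2797 against 2082, 1184 against 849 and 435 against 313. Their differences ran from 0.15 to 0.55, with 0.18 at the brightest probe and a mean of 0.26 ± 0.15 (SD over 6 probes, which share 1 hybridisation per group and are not replicates). All 6 probes thus gave the same direction. Its constitutive relative HSP90AB1 had 5 of 6 probes above 0, but the brightest read 8822 against 7252, a difference of 0.0079. The other 5 probes of HSP90AB1 read 3664 against 2462, 2734 against 1767, 1962 against 1411, 421 against 325 and 86 against 76, and ran from -0.10 to 0.35. The gene's value therefore depended on the probe, with a mean over probes of 0.14 ± 0.17 (SD over 6 probes).

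HSPA8, the constitutive HSP70 of all cells, was read by 6 probes at 4884 against 3779, 3070 against 2371, 2066 against 1785, 1162 against 923, 369 against 283 and 278 against 215. Their differences ran from -0.06 to 0.11, with 0.10 at the brightest, and 5 of 6 lay above 0. HSPA14, an HSP70 that works at the ribosome, had 0.31 at 157 against 105, inside the 0.46 that replicate spots of dim probes allow, and its second probe had 0.34 at 46 against 30, on a spot not flagged good in high feed efficiency. HSPA4 and HSPH1 belong to the HSP110 branch, which helps HSP70 release its nucleotide. HSPA4 had 0.23 at 177 against 125, but its other probe, at 70 against 74, had -0.36, so the probes pointed in opposite directions. HSPH1 had a single probe with 0.10 at 154 against 119.

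HSPA1A, the classical heat-inducible HSP70, was read by 5 probes, and all 5 lay below 0. They read 2140 against 1876, 154 against 139, 65 against 65, 63 against 59 and 20 against 35, with differences of -0.08, -0.13, -0.27, -0.18 and -1.08. The last, the only one of the 118 probes above background on both arrays that was 2-fold apart, was also the dimmest of the 5, on a spot not flagged good in low feed efficiency. The brightest probe was -0.05 relative to all genes, and that sign was not stable: it was above 0 under 6 of 14 processing alternatives. The cattle genome holds near-identical copies of this gene, listed under its symbol as HSPA1B, and whether the probes separate them was not examined. HSPA1L, which sits next to HSPA1A in the ARS-UCD2.0 assembly and is known for expression in the testis, was not above background on either array, at 4 against 4. HSPA2, another testis-rich HSP70, read 38 against 32 and 26 against 21, with differences of -0.03 and 0.03; the array's own description of the brighter of these probes names HSPA1A, so its assignment is uncertain.

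BAG3, which links HSP70 to the small heat shock protein HSPB8 and sends damaged protein to autophagy, had the only value 1.5-fold apart among the brightest probes. Its brightest probe read 2984 against 3841, a difference of -0.64, lower than in all but 2.44% of genes. The other probes were also below 0, at 370 against 366 (-0.26) and 21 against 20 (-0.20), and the mean over probes was -0.37 ± 0.24 (SD over 3 probes). All 3 probes thus had the same sign, and the size came from the brightest. BAG3 stayed below 0 under all 14 alternatives, from -0.65 to -0.26, but fell short of 1.5-fold under 8 of them. Among these were -0.53 with loess, -0.44 with normexp background correction and -0.37 as the mean over probes. Several of the 14 leave the value of the brightest probe unchanged, so they are not 14 separate checks.

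HSPB8, the partner of BAG3, read 63 against 58 and 12 against 12 (-0.16 and -0.27), and another, at 18 against 9, exceeded background in the low efficiency array alone. That probe gives a nominal bound of at least 1.35-fold higher in low feed efficiency, opposite to the other 2. Both its readings lie close to the background limit of 10.9, and no spot of HSPB8 was flagged good, so its direction is uncertain. HSPB1, the small heat shock protein HSP27 that holds unfolded proteins in store, read 9467 against 9248 (-0.24) and, at a dim probe made from an expressed sequence tag, 47 against 36 (0.11). The brighter probe of HSPB1 gave -0.11 with loess normalization and 0.14 with spike-in scaling. DNAJB1, the J-domain partner of heat-inducible HSP70, had -0.20 at 182 against 173 and -0.05 at 89 against 76.

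The J-domain protein DNAJA1, which serves HSPA8, had 5 probes on both sides of 0. The brightest read 335 against 237 (0.22), and the others 261 against 239 (-0.15), 232 against 201 (-0.07), 104 against 89 (-0.05) and 90 against 66 (0.17), so the mean over probes was 0.03 ± 0.16 (SD). DNAJA2 had -0.0029 at 355 against 294, with its other 4 probes between -0.18 and 0.62, the highest at 39 against 21. DNAJB6, which keeps aggregation-prone proteins soluble, had 3 probes above 0, at 178 against 135 (0.12), 55 against 43 (0.08) and 22 against 16 (0.18). The HSP70 to HSP90 adaptor STIP1 had 0.07 at 625 against 493, and 4 of its 6 probes were below 0. The probes of STIP1 read 455 against 459 (-0.29), 182 against 144 (0.06), 63 against 64 (-0.30), 47 against 61 (-0.65) and 18 against 16 (-0.10) beside the brightest, and their mean was -0.20 ± 0.27 (SD). The direction of STIP1 thus turned with the way probes were summarised. BAG1, a nucleotide exchange factor for HSP70, had 0.03 at 588 against 475 and -0.03 at 32 against 27.

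Mitochondrial chaperones. All 4 genes were measured and none was 1.5-fold apart; their median was -0.03, and they split 2 and 2 around the median of all genes. HSPD1 and HSPE1 encode HSP60 and HSP10, which form the folding chamber of the mitochondrial matrix, and lie side by side in the ARS-UCD2.0 assembly. The brightest HSPD1 probe read 358 against 368, a difference of -0.31. Of the other 4 HSPD1 probes, 3 were also below 0, at 170 against 155 (-0.14), 90 against 79 (-0.09) and 51 against 47 (-0.16), while 1 read 280 against 194 (0.25). Both HSPE1 probes were below 0, at 1251 against 1101 (-0.09) and 1074 against 987 (-0.15). Of the 7 probes of this pair 1 lay above 0, and of the 12 probes of all 4 genes 5 did, where 46.2% of all named probes lay above 0. These probes share 1 hybridisation per group and are not replicates. Relative to all genes HSPE1 was at -0.05, and above 0 under 3 of 14 alternatives. The other genes of this list, HSPA9 and TRAP1, had 2 of 2 and 2 of 3 probes above 0. HSPA9, the mitochondrial HSP70 that pulls imported proteins through the membrane, had 0.02 at 526 against 428 and 0.28 at 41 against 28. TRAP1, the mitochondrial HSP90, had 0.04 at 520 against 419, 0.10 at 65 against 50 and -0.10 at 27 against 24.

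Endoplasmic reticulum chaperones. The 12 genes, all measured, had a median of -0.06 and none was 1.5-fold apart; 6 exceeded the all-gene median and 6 did not. HSPA5, the HSP70 known as BiP that also holds the stress sensors inactive, read 1786 against 1566 at its brightest probe, a difference of -0.09. Its other probes read 263 against 257 (-0.24), 83 against 78 (-0.19) and 52 against 22 (0.97). The dimmest HSPA5 probe was the only one above 0, on a spot not flagged good in high feed efficiency, as was the spot at 257. HSP90B1, the HSP90 of this compartment, had a single probe with -0.03 at 1017 against 861, or 0.0045 above the median of all genes. HSPA13, an HSP70 of the same compartment, was barely above background at 13 against 11 (-0.03).

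Calreticulin and calnexin hold glycoproteins until they are folded. CALR, which encodes calreticulin, read 6794 against 6069 (-0.11), 4308 against 4361 (-0.29), 2717 against 2304 (-0.04), 333 against 267 (0.04), 118 against 95 (0.04) and 79 against 74 (-0.18). CANX, which encodes calnexin, read 914 against 732 (0.05), 589 against 481 (0.02) and 118 against 95 (0.04) at its 3 brightest probes. The 4 dimmer CANX probes ran from -0.27 to 0.57, so agreement was close among bright spots and poor among dim ones. The disulfide isomerases PDIA4 and PDIA6 lay below 0 at every probe. PDIA6 read 2223 against 2120 (-0.21), 150 against 140 (-0.18) and 123 against 106 (-0.06). PDIA4 read 439 against 394 (-0.12), and at probes close to background 18 against 26 (-0.81) and 16 against 26 (-0.98). Its mean over probes of -0.63 ± 0.45 (SD) therefore came from the 2 dim probes, and with that summary PDIA4 took the place of BAG3 as the only member 1.5-fold lower.

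The J-domain proteins of this compartment differed among themselves. DNAJB11 had -0.29 at 124 against 125 and 0.15 at 132 against 98, probes of nearly the same brightness that pointed in opposite directions. DNAJB9, a target of XBP1, had -0.13 at 976 against 883. DNAJC3, which restrains the kinase PERK, had 0.17 at 204 against 150. EDEM1 marks misfolded glycoproteins for disposal and had 0.16 at 520 against 384 and 0.30 at 264 against 177. The other EDEM1 probes were not above background on both arrays, at 13 against 10 and 4 against 5. HERPUD1, a stress-induced part of the disposal machinery, had 0.08 at 277 against 217, 0.04 at 56 against 45 and -0.36 at 94 against 100.

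Regulators. Of the 5 measured factors 2 lay above and 3 below the median of all genes. DDIT3, which encodes the stress factor CHOP at the end of the PERK branch, was higher at both probes, 902 against 607 (0.30) and 309 against 188 (0.44). Relative to all genes DDIT3 lay between 0.33 and 0.43 under the 14 alternatives, several of which leave its brightest probe as reported. ATF4, which activates DDIT3 and is itself set largely by translation, had 0.22 at 7077 against 5020, 0.09 at 775 against 600 and -0.12 at 336 against 302. HSF1, the master factor of the heat shock response, was lower at all 3 probes, 1018 against 997 (-0.24), 57 against 53 (-0.17) and 37 against 43 (-0.49). HSF2, its relative in development, had -0.15 at 24 against 22, and a second probe was not above background. XBP1 was also below 0 at all 3 probes, 2030 against 1777 (-0.08), 1167 against 1108 (-0.20) and 196 against 180 (-0.15); the activity of XBP1 is set by splicing of its RNA, which these probes were not shown to separate. ATF6 had no probe under its symbol or a RefSeq accession; 2 probes that only the array's description ties to it read 4 against 10 and 6 against 6, below background on both arrays.

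**Figure D2:**
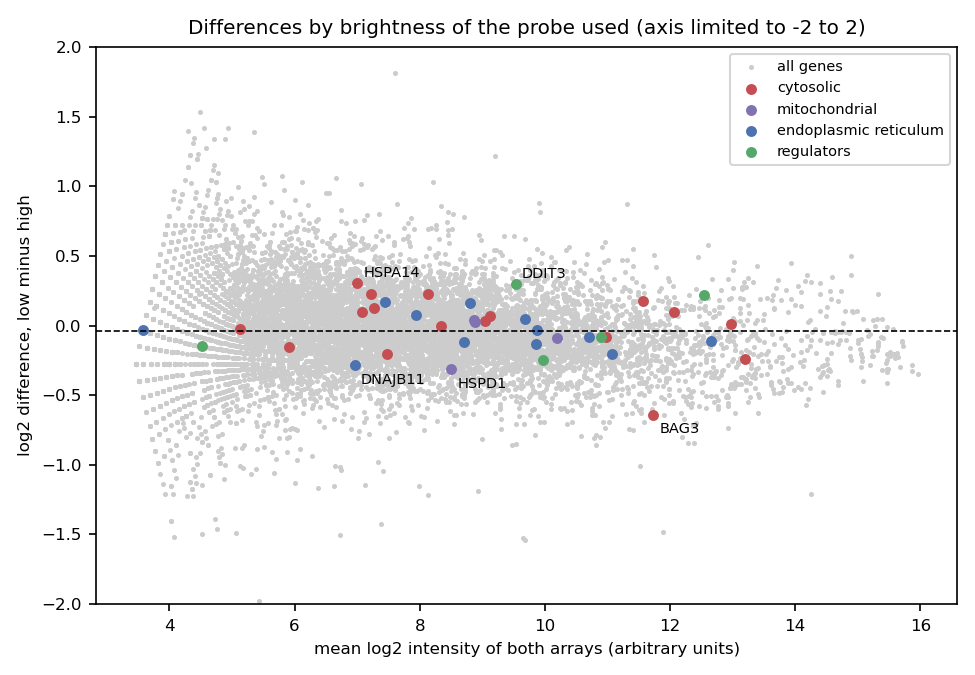
Log2 ratio of low over high feed efficiency (y axis) against the mean log2 intensity of both arrays (x axis, arbitrary units) for the probe used for each gene; grey points are the 10339 measured genes (those beyond -2 or 2 fall outside the axis), coloured points the 38 genes by compartment, and the dashed line the median of all genes. Apart from BAG3 the coloured points lie between -0.31 and 0.31, and dim genes scatter more than bright ones.

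Probes of the same gene did not always have the same sign. In 32 of the 38 genes 2 or more probes were above background on both arrays. All probes of a gene lay above 0 in 6 of them and below 0 in 9, where genes with 2 or more probes had 25.4% and 32.7% in all. In 17 of the 32 the probes lay on both sides, as in most of the remaining genes of the array. These counts were not matched for the number of probes per gene. Some of the 17 straddled 0 narrowly, such as HSPA2 (-0.03 and 0.03) and BAG1 (0.03 and -0.03). The 6 with every probe above 0 were HSP90AA1, HSPA14, DNAJB6, HSPA9, EDEM1 and DDIT3. The 9 with every probe below 0 were BAG3, DNAJB1, HSPB8, HSPA1A, HSPE1, PDIA4, PDIA6, HSF1 and XBP1. The median SD over the probes of a gene was 0.17 for these 32 and 0.14 over all genes with 2 or more probes, and by compartment it was 0.16 in the cytosol, 0.14 in mitochondria and 0.28 in the endoplasmic reticulum. Counted by probe, 118 of 123 were above background on both arrays, 2 in low feed efficiency only and 3 on neither. Of the 118 probes 55 lay above and 63 below 0, 2 were 1.5-fold higher and 5 were 1.5-fold lower. Over all 18373 named probes above background on both arrays, 46.2% lay above 0, 3.09% were 1.5-fold higher and 3.25% were 1.5-fold lower.

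Set side by side, the cytosolic median was 0.09 above that of the endoplasmic reticulum and 0.07 above that of the mitochondrial genes, and the mitochondrial median was 0.03 above that of the endoplasmic reticulum. No test was possible for these gaps. The order of cytosol above endoplasmic reticulum held under all 14 alternatives, with gaps from 0.05 to 0.15, and cytosol above mitochondria likewise, with gaps from 0.04 to 0.10. Some of these alternatives could not change a gap. Scaling on spike-in controls or on the median of detected probes shifts all genes alike. No spot of these genes was saturated or left out as not found, so the alternatives on such spots could not change it either. The gap between mitochondria and endoplasmic reticulum ranged from -0.0088 to 0.05 under the alternatives, and other summaries reversed it. The mean over genes was -0.09 for mitochondria, -0.05 for the endoplasmic reticulum and 0.0004 for the cytosol. The median over probes was -0.09, -0.05 and 0.03 in the same order.

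**Figure D3:**
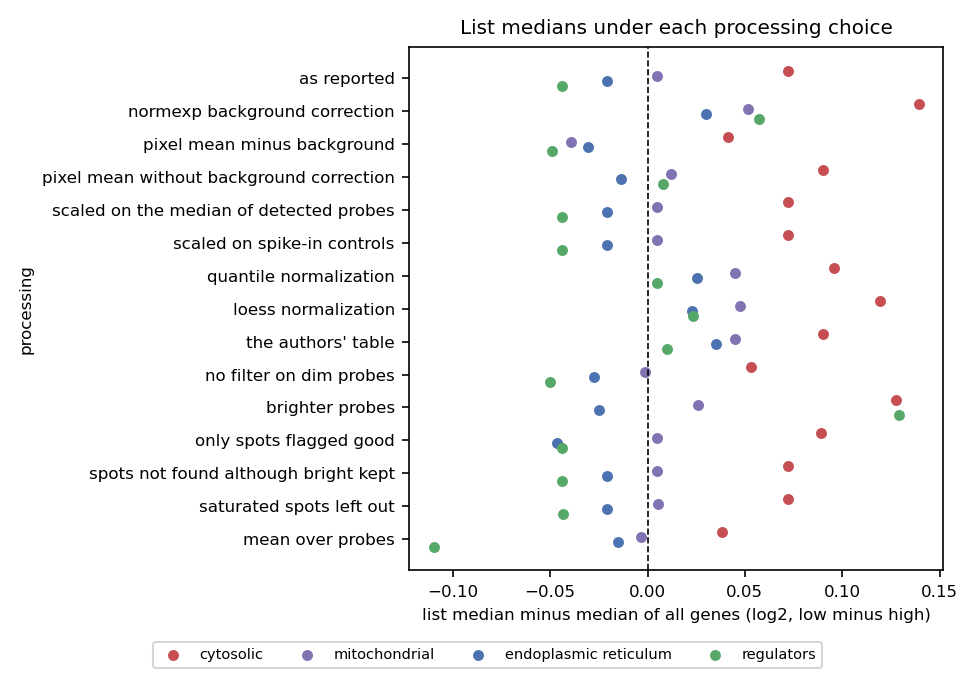
Median of each list minus the median of all genes, as log2 of low minus high feed efficiency (x axis), as reported and under 14 processing alternatives (y axis), for 17 cytosolic, 4 mitochondrial and 12 endoplasmic reticulum genes and 5 regulators as reported. The cytosolic median lies between 0.04 and 0.14 and to the right of the endoplasmic reticulum median in every row.

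Other genes of the same compartments, not counted above, were taken from lists of 110 chaperone and stress genes, of which 94 were measured. None was 2-fold apart, 2 were 1.5-fold higher and 1 was 1.5-fold lower, against the 2.68% and 3.14% of all genes. Other cytosolic chaperones (33 measured of 40) had a median of 0.06, with 21 above the median of all genes. Other endoplasmic reticulum genes (33 of 38) had -0.09, with 12 above and 21 below. The gap of 0.14 between these lists had the same sign as that between the members, 0.12 to 0.15 under all alternatives. It comes from the same 2 arrays, and the lists were chosen with earlier results of these data known. The shared sign is therefore no independent check. Other mitochondrial chaperones and proteases (13 of 14) had -0.0026 and other regulators (15 of 18) -0.04.

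**Figure D4:**
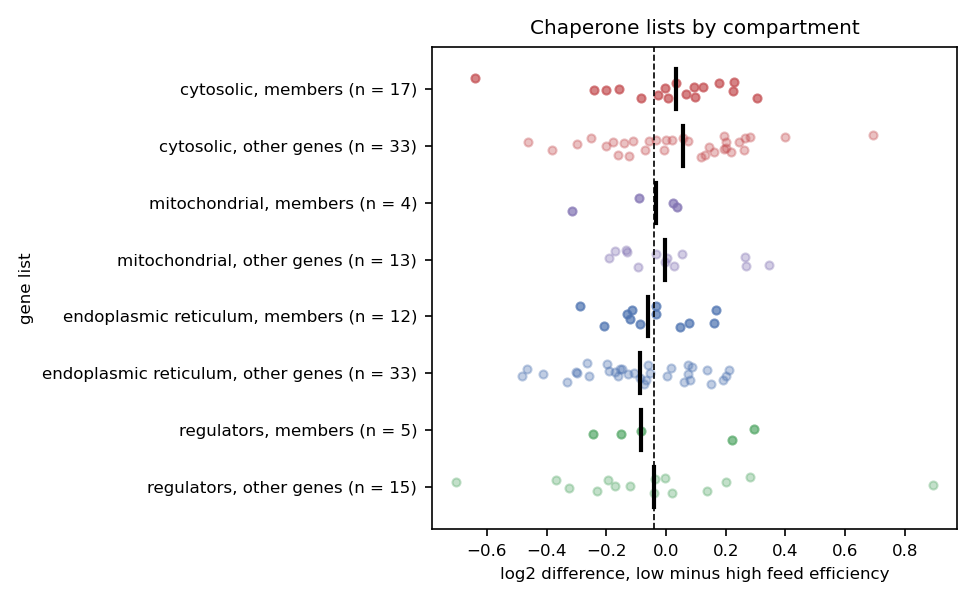
Log2 ratio of low over high feed efficiency (x axis) of each measured gene (points, spread vertically at random) in the lists of members and of other genes by compartment (y axis); thick bars are list medians and the dashed line is the median of all genes. Medians of the cytosolic lists, 0.03 and 0.06, lie to the right of those of the endoplasmic reticulum lists, -0.06 and -0.09.

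In the cytosol the other gene farthest above 0 was DNAJC7, a co-chaperone that binds both HSP70 and HSP90, with 0.69 at 511 against 261 and 4 probes between 0.19 and 0.69. Farthest below was the small heat shock protein gene HSPB6, with -0.46 at 638 against 727 and -0.35 at its second probe. The 6 measured subunits of prefoldin, which hands actin and tubulin to a folding chamber, lay between 0.02 and 0.28, all above 0 by their brightest probe, although PFDN2 had another probe at -0.86. Of the 8 subunits of that chamber, TRiC, 4 lay above 0 and 4 below, from CCT5 with -0.25 to CCT8 with 0.27. These complexes were picked out after their values were seen. Among mitochondrial genes GRPEL2, an exchange factor of HSPA9, had 0.35 at 40 against 26, and the J-domain protein DNAJA3 had -0.19 at 208 against 196.

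In the endoplasmic reticulum SERPINH1, a chaperone of collagen, was lowest with -0.48 at 258 against 298, and DERL2, of the disposal channel, was highest with 0.21 at 733 against 523. HYOU1, which recharges BiP, had -0.47 and a second probe at -0.27. P4HB, the main disulfide isomerase, had -0.33 at 4437 against 4617 with 4 probes between -0.41 and -0.24, and CRELD2, a stress-induced gene, had -0.41 at 613 against 674. The last 3 were named after their values were seen. Among regulators CEBPB, a partner of CHOP and ATF4 and an abundant factor of myeloid cells, had -0.70 at 1134 against 1527 with 3 probes between -0.70 and -0.08. HSF4, a heat shock factor best known from the lens, had 0.90 at 45 against 20, a dim single probe that gave 0.18 with normexp background correction.

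Marker genes of blood cells were above background, among them the globin gene HBA at 26648 against 20058, the neutrophil gene S100A8 at 17264 against 13316 and the platelet gene PF4 at 11351 against 9746. Median differences were 0.10 for neutrophil markers (7 of 9 above the median of all genes), -0.21 for monocytes (2 of 6), -0.16 for T cells (2 of 7), -0.24 for B cells (2 of 5), -0.38 for natural killer cells (0 of 5), -0.36 for erythroid cells (2 of 5) and -0.05 for platelets (2 of 5). The summed intensity of measured markers, as a ratio of low over high after scaling, was 1.12 for neutrophils, 0.88 for monocytes and for T cells, 0.92 for B cells, 0.79 for natural killer cells, 1.08 for erythroid cells and 1.03 for platelets. KLRD1 (2 probes) and SLC4A1 (3 probes) were not above background on both arrays, and no probe was matched to FPR1, CD22 and GP9. In whole blood, fewer cells of a type and less RNA per cell cannot be told apart, and the part of cell makeup in the chaperone differences was not tested.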

How the data were processed

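Per the labels, Cy3-labelled total RNA of 2 whole blood specimens was put on 1 array each. The deposited scanner files hold spot intensity, read on a GenePix 4000B and exported with GenePix Pro 6.1.0.4, per the file headers, whereas Agilent Feature Extraction is the tool in the submitters' processing notes. Per the file headers, background was the mean of negative controls. Also deposited are a flag score for each spot (100 good, 0 unflagged, -50 not found) and its percent of saturated pixels. The authors' deposited table of log2 values fitted the scanner values after a shift of 1 row and not before (rank correlation 1.00 against 0.077 for the low and 0.072 for the high efficiency array, 43652 rows). It served as an alternative, and how it was normalized is not stated.

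Of 43803 probe spots per array, those flagged as not found although bright (408 in low, 283 in high; none in the genes described) were left out. The 75th percentile by which each array was scaled was 98 in low and 81 in high feed efficiency. Above background means over the negative controls' median by 3 robust SDs (10.9 on both arrays). Probes were named through RefSeq accessions, then symbols, then synonyms of the ARS-UCD2.0 gene table; 9136 had no name. Analyses used Python 3.11.15 and limma 3.58.1. The scaling and the choice of the brightest probe were tested on simulated data with planted 2-fold changes. The background filter, the alternatives and the list summaries were not. In the simulation all probes of a gene had the same change, with the same noise at every brightness, so it does not cover probes that disagree. Fold counts, written as a ratio, have no test. Named were all members and, per other list, the gene farthest from 0 each way. Sequences were not used here. Members and lists were chosen with earlier results of these data known. Alternatives are in the closing section.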

Additional observations from a re-analysis of the deposited data

How the results depend on the processing

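No paired analysis was possible because each group has 1 array. BAG3, the only member 1.5-fold apart as reported, kept its sign over 14 alternatives. Not all of them could change its value. It stayed at -0.64 without the filter on dim probes, among brighter probes, with spots flagged good and with saturated spots left out. Scaling on the median of detected probes or on spike-in controls shifts all genes alike. Members that passed 1.5-fold only under an alternative did not all keep theirs. PDIA4 ran from -0.63 as the mean over probes to 0.26 with spike-in scaling, and HSPA4 from -0.06 to 0.60 under the same 2 settings. Scaling on 7 spike-in controls moved every difference, and the median of all genes, by 0.38, and made 5 members 1.5-fold higher (ATF4, DDIT3, DNAJA1, HSPA4 and HSPA14) and 0 lower; all genes then had 1991 and 70 in place of 277 and 325 at 1.5-fold, and 231 and 20 in place of 38 and 59 at 2-fold. Relative to all genes this scaling changes nothing. The count of members 1.5-fold lower, 1 as reported, was also 0 with normexp, the pixel mean with or without background subtraction, quantile and loess normalization and the authors' table. The regulators' median relative to all genes, -0.04, was 0.057 with normexp and 0.13 among brighter probes, where HSF2 drops out; the same medians of the endoplasmic reticulum (-0.05 to 0.04) and mitochondrial genes (-0.04 to 0.05) took either sign. Over all genes, counts higher and lower at 1.5-fold were 95 and 95 with normexp, 110 and 167 with the uncorrected pixel mean, 66 and 122 among brighter probes, 138 and 162 with spots flagged good, and 1700 and 1799 without a filter on dim probes. At 2-fold they were 22 and 35 with normexp, 7 and 20 among brighter probes, 7 and 17 with spots flagged good, and 831 and 908 without the filter. Signal over background limits HSPA13, HSF2, HSPA2 and HSPB8, which drop out among brighter probes.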
